A study of Mus musculus with 12 samples.

Results

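The Fc receptor family was followed in sorted brain cells of old mice through 7 genes, listed by symbol and found as 7 of the 47643 gene rows of the count table. They were the activating receptors *Fcgr1*, *Fcgr3* and *Fcgr4*, the signalling chain *Fcer1g*, the inhibitory receptor *Fcgr2b*, the receptor-like gene *Fcrls*, and *Fcgrt*, which encodes the neonatal Fc receptor. All 7 reached the minimum of 20 counts over the samples and were tested among 10254 genes. *Fcgr4* did so with 21 counts, of which 17 lay in 1 population.

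Both cell populations came from the brains of 5 male p16-3MR mice on a C57BL/6 background, aged 113, 115, 116, 116 and 116 weeks (mice 1 to 5). All mice carried the same p16 reporter transgene. Cells in which the p16 promoter is active make its product, which combines a luciferase, a viral kinase and the red fluorophore used for sorting. From each mouse, viable cells with low fluorescence (RFPLow, labelled RFPneg) and with high fluorescence (RFPHigh, labelled RFPpos) were sorted in bulk, giving 5 samples per population, paired by mouse. No young mice, no females and no mice without the transgene were among these samples, and cells were sorted by viability, a DNA stain and fluorescence, so each sample mixes cell types. The 2 single-cell samples of the series were not analysed here. Counts on genes ranged from 177287 to 415834 per sample, so that 3 counts equalled between 7.11 and 16.9 CPM (counts scaled to a common total per sample), and weakly expressed genes rested on few counts. Reads on no gene made up 32.1% to 37.2% of reads in the RFPLow samples and 38.4% to 48.6% in the RFPHigh samples, higher in 5 of 5 mice, so this measure of the libraries differed along with the groups, and its part in the differences below was not tested.

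Fc receptors bind the constant part of antibodies and link the antibody response to phagocytes. Activating receptors signal through an ITAM, a tyrosine motif that Src family kinases phosphorylate and Syk binds, whereas the inhibitory receptor carries an ITIM, which recruits phosphatases. In the brain, microglia and border macrophages are the main cells with Fcγ receptors, and the neonatal receptor is best known for carrying IgG through endothelial cells and protecting it from degradation.

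The libraries read transcripts near their 3′ ends, so counts were not divided by gene length, and levels are given in CPM, scaled by edgeR's TMM method, a trimmed mean of log ratios. A second scaling set each sample to the sum of 20 microglia genes that include no member (the microglia core). By edgeR's quasi-likelihood test, paired by mouse, at a Benjamini-Hochberg adjusted p under 0.05, 5 of the 7 members were higher in RFPHigh (*Fcgr1*, *Fcgr2b*, *Fcgr3*, *Fcer1g* and *Fcrls*) and 0 were lower, although relative to the core *Fcgr1* and *Fcer1g* turned to −0.05 and −0.01. Over all tested genes the same rule called 5.28% higher and 8.92% lower. At an unadjusted p under 0.05, 1 member (*Fcgrt*) was lower, and the edgeR likelihood ratio test, DESeq2 and limma voom each called 5 higher and 0 lower. Relative to the core, *Fcrls* alone was called higher and *Fcgrt* alone was called lower. Under that scaling 0.224% of all tested genes were called higher and 56.8% lower, because it moved the median over all genes by −1.11 on the log2 scale. In bulk samples, fewer cells of a type and less RNA per cell cannot be told apart.

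*Fcgr3*, the low-affinity activating IgG receptor, was the most abundant member in both populations. It stood at 433, 404, 284, 320.2 and 419 CPM in the RFPLow samples of mice 1 to 5, and at 1239, 1118, 969, 970.3 and 1121 CPM in their RFPHigh samples. The populations did not overlap, mouse 1 was highest in both, and each RFPHigh sample lay above its partner in 5 of 5 mice. The means were 372 ± 65.8 CPM (SD, n = 5) and 1083 ± 115 CPM (SD, n = 5), and the log2 fold change was 1.55 (SE 0.17; edgeR adjusted p = 6.84e-07), against 0.43 relative to the core.

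*Fcgr1*, the high-affinity receptor that can bind IgG before it has met antigen, was scarcer. Its RFPLow levels were 89.9, 132, 102, 60.8 and 109.6 CPM, and its RFPHigh levels were 199.9, 228, 209.5, 204 and 187 CPM. Mouse 4 was lowest and mouse 2 highest among the RFPLow samples, the RFPHigh samples lay close together, and the populations did not overlap. The means were 98.7 ± 26.1 CPM (SD, n = 5) and 206 ± 14.8 CPM (SD, n = 5), higher in 5 of 5 mice, and the log2 fold change was 1.07 (SE 0.24; edgeR adjusted p = 0.00287), against −0.05 relative to the core.

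*Fcgr4*, an activating receptor with intermediate affinity that is typical of monocytes and neutrophils, was close to the detection limit. It had 1, 1, 2, 0 and 0 counts in the RFPLow samples and 1, 11, 0, 5 and 0 counts in the RFPHigh samples. Mouse 2 and mouse 4 thus held 16 of the 17 RFPHigh counts, and the gene was higher in 2 of 5 mice. Summed over the mice, the level in RFPLow was 0.206 of that in RFPHigh, with a 95% counting interval from 0.0504 to 0.631, but without mouse 2 the ratio was 0.394 and its interval (0.0638 to 1.85) included 1. In the fit, which takes in the spread between mice, the log2 fold change of 1.72 had a 95% interval from −0.41 to 4.16 and was not called (edgeR adjusted p = 0.306).

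*Fcer1g* encodes the common γ chain, which carries the ITAM and holds the activating receptors at the cell surface. Its levels were 410.1, 297, 384, 299.9 and 357 CPM in the RFPLow samples and 879, 847, 677, 799 and 599.9 CPM in the RFPHigh samples. Mouse 5 was the lowest of the RFPHigh samples and still lay above all RFPLow samples. The means were 349.6 ± 50.3 CPM (SD, n = 5) and 760.3 ± 118 CPM (SD, n = 5), higher in 5 of 5 mice, and the log2 fold change was 1.11 (SE 0.19; edgeR adjusted p = 0.000163), against −0.01 relative to the core.

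*Fcgr2b*, the inhibitory IgG receptor, was higher in CPM as well. The RFPLow samples held 146, 199.7, 118, 81.1 and 147 CPM, and the RFPHigh samples 409.7, 356, 214, 351 and 317 CPM. The lowest RFPHigh sample, that of mouse 3, was only just above the highest RFPLow sample, that of mouse 2. The means were 138 ± 43.5 CPM (SD, n = 5) and 329.5 ± 72.7 CPM (SD, n = 5), higher in 5 of 5 mice, and the log2 fold change was 1.25 (SE 0.23; edgeR adjusted p = 0.00041), against 0.13 relative to the core, where it was not called (adjusted p = 0.652).

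*Fcrls* is a receptor-like gene of the same family that is widely used to mark microglia, and no antibody ligand is established for it. Its RFPLow levels were 354, 185, 206, 174 and 191 CPM, and its RFPHigh levels were 984, 630.0, 659, 851 and 499.9 CPM. The RFPLow sample of mouse 1 stood apart from the other RFPLow samples, and the populations did not overlap. With means of 222 ± 74.6 CPM (SD, n = 5) and 725 ± 192 CPM (SD, n = 5), *Fcrls* had the largest log2 fold change of the 5 members called, 1.71 (SE 0.20; edgeR adjusted p = 8.74e-07; higher in 5 of 5 mice).

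*Fcgrt*, the heavy chain of the neonatal receptor, resembles MHC class I molecules and pairs with β2-microglobulin. It went the other way in each mouse, with 67.4, 43.8, 54.5, 64.8 and 47.0 CPM in the RFPLow samples and 40.0, 21.4, 17.5, 51.9 and 12.5 CPM in the RFPHigh samples. The RFPHigh sample of mouse 4 lay within the RFPLow range, so the populations overlapped, although the RFPHigh sample was below its partner in 5 of 5 mice. The means were 55.5 ± 10.5 CPM (SD, n = 5) and 28.6 ± 16.6 CPM (SD, n = 5), on 75 and 34 counts in all. The log2 fold change of −1.0 had a 95% interval from −1.83 to −0.20 and did not pass the adjusted test (edgeR adjusted p = 0.0931).

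**Figure D1:**
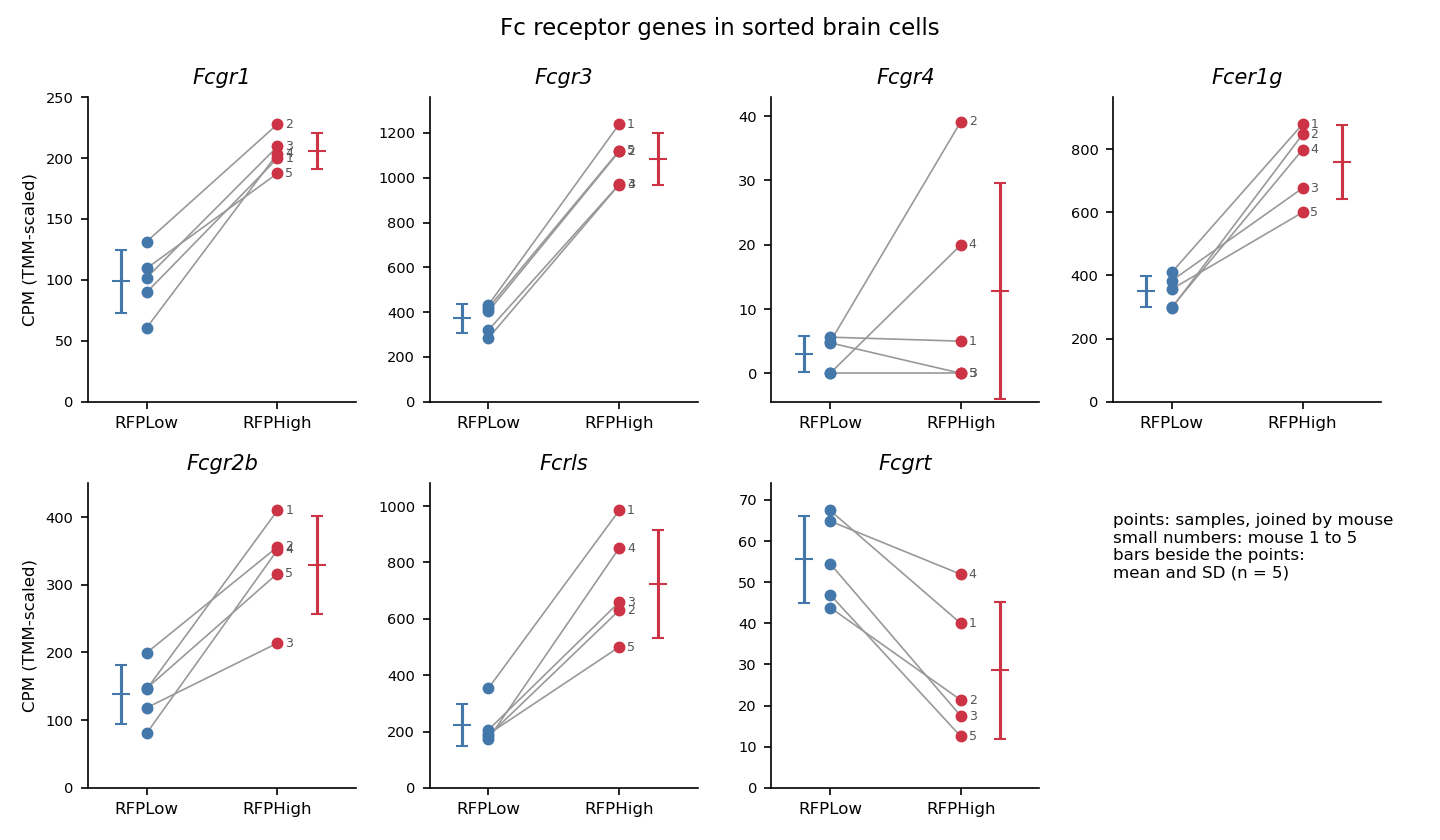
Levels of the 7 Fc receptor genes in CPM (TMM-scaled, linear axes) in the RFPLow (blue) and RFPHigh (red) samples of 5 mice, joined by mouse, with mean and SD beside the points. *Fcgr1*, *Fcgr3*, *Fcer1g*, *Fcgr2b* and *Fcrls* were higher in the RFPHigh sample of 5 of 5 mice and *Fcgrt* was lower in 5 of 5, whereas relative to the microglia core *Fcgr1*, *Fcer1g* and *Fcgr2b* had log2 fold changes of −0.05, −0.01 and 0.13.

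The order of the mean levels was the same in both populations: *Fcgr3*, *Fcer1g*, *Fcrls*, *Fcgr2b*, *Fcgr1*, *Fcgrt* and *Fcgr4*. In the RFPLow samples the CPM ranges of neighbours in this order overlapped, except those of *Fcgrt* and *Fcgr4*. *Fcgr3* exceeded *Fcer1g* in 4 of 5 RFPLow samples. In the RFPHigh samples there was no overlap between *Fcgr3* and *Fcer1g*, between *Fcrls* and *Fcgr2b*, or between *Fcgr1* and *Fcgrt*, whereas *Fcgrt* and *Fcgr4* overlapped there. *Fcer1g* and *Fcrls* were not told apart there, since *Fcer1g* was higher in 3 of 5 samples. Together the 7 genes took 0.127% ± 0.0197 (SD, n = 5) of all counts in the RFPLow samples and 0.306% ± 0.0285 (SD, n = 5) in the RFPHigh samples.

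The share of counts on the microglia core moved in the same direction. The 20 core genes summed to 1.79%, 1.12%, 1.25%, 1.14% and 1.65% of counts in the RFPLow samples and to 3.35%, 2.69%, 2.94%, 2.77% and 2.50% in the RFPHigh samples. The populations did not overlap, and the RFPLow samples of mouse 1 and mouse 5 had the highest core shares of their group. Of the 20 core genes 19 were called higher (0 when scaled to their own sum, where *Ltc4s* and *Adgrg1* were called lower at −1.0 and −0.56), with a median log2 fold change of 1.26 against 1.25 for the 7 Fc receptor genes and −0.09 for all tested genes. Of all tested genes 5.28% were called higher. *Cx3cr1*, the fractalkine receptor and the most abundant core gene, had a log2 fold change of 0.98 (edgeR adjusted p = 9.37e-05), which turned to −0.15 under the core scaling itself. The part of the microglia content in the differences of the Fc receptor genes was not tested beyond this scaling. The part of other leukocytes in the core counts was not tested either.

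Counted per 1000 core counts, 6 of the 7 members showed 3 patterns, and *Fcgr4* had too few counts to be placed. *Fcgr3* stood at 24.3, 37.6, 23.1, 27.9 and 27.2 in the RFPLow samples and at 33.3, 40.3, 33.9, 35.1 and 44.4 in the RFPHigh samples, and *Fcrls* at 19.9, 17.2, 16.8, 15.2 and 12.4 against 26.4, 22.7, 23.0, 30.7 and 19.8. Both were higher in the RFPHigh sample of 5 of 5 mice, yet both ranges overlapped, for *Fcgr3* through the RFPLow sample of mouse 2 and for *Fcrls* by a narrow margin between mouse 1 and mouse 5. With this scaling the log2 fold change of *Fcrls* was 0.59 (edgeR adjusted p = 0.0166, against 3.13e-14 to 0.000102 under 13 other alternatives). That of *Fcgr3* was 0.43, with an adjusted p of 0.0501 by edgeR, so that its call was lost by a small margin, against 7.6e-14 to 6.9e-05 under the 13 others.

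*Fcgr1*, *Fcgr2b* and *Fcer1g*, a high-affinity receptor, the inhibitory receptor and the shared chain, formed the second pattern, without a call and with intervals that included 0. Per 1000 core counts, *Fcer1g* had 26.2 ± 3.43 (SD, n = 5) in RFPLow and 26.1 ± 3.35 (SD, n = 5) in RFPHigh, *Fcgr1* had 7.59 ± 2.92 and 7.14 ± 1.05, and *Fcgr2b* had 10.6 ± 4.59 and 11.3 ± 2.27. *Fcer1g* was nevertheless higher in the RFPHigh sample of 4 of 5 mice, and fell only in mouse 3, from 31.2 to 23.6; without that mouse its mean paired difference was 1.71. *Fcgr1* and *Fcgr2b* were each higher in 3 of 5 mice. The log2 fold changes of *Fcer1g*, *Fcgr1* and *Fcgr2b* relative to the core were −0.01 (95% interval −0.40 to 0.38), −0.05 (−0.57 to 0.47) and 0.13 (−0.38 to 0.64). The RFPLow sample of mouse 2 held the highest value of *Fcgr1* (12.2) and of *Fcgr2b* (18.6), and was the sample with the fewest core counts, 2205. Its RFPHigh partner had 8.21 and 12.8. Without mouse 2 the mean of *Fcgr1* was higher in RFPHigh than in RFPLow, and the rise in the mean of *Fcgr2b* was larger.

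*Fcgrt* showed the third pattern. It fell from 3.79, 4.08, 4.44, 5.65 and 3.04 to 1.07, 0.769, 0.610, 1.88 and 0.495 per 1000 core counts, and the populations no longer overlapped. The RFPHigh values rest on 8, 6, 4, 13 and 3 counts of *Fcgrt*. Its log2 fold change relative to the core was −2.14 (95% interval −2.98 to −1.35; edgeR adjusted p = 0.000136, against 0.0608 to 0.246 under 13 other alternatives). That scaling called 56.8% of all tested genes lower and moved their median by −1.11, about as far as it moved *Fcgrt*. Markers of endothelial cells, for which this receptor is well known, also took a lower share of counts in the RFPHigh samples. The 10 endothelial markers, of which *Flt1* was the most abundant, summed to 0.155%, 0.512%, 0.527%, 0.683% and 0.408% of counts in the RFPLow samples and to 0.0103%, 0.0138%, 0.0184%, 0.0315% and 0.0194% in the RFPHigh samples. All 10 were called lower in CPM, where 8.92% of all tested genes were, and *Emcn* had 0 counts in RFPHigh. Within both populations mouse 1 had the lowest endothelial share and mouse 4 the highest. Mouse 1 had the highest *Fcgrt* level in CPM of the RFPLow samples, while mouse 4 had the highest of the RFPHigh samples and the highest level per 1000 core counts in both populations. The part of endothelial RNA in the *Fcgrt* difference was not tested.

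**Figure D2:**
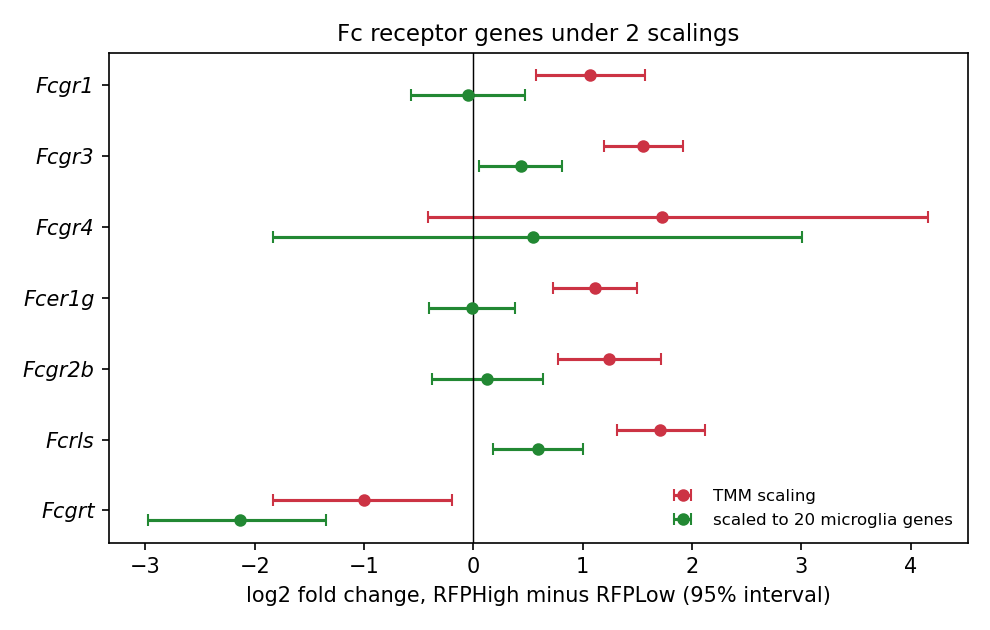
Log2 fold change between RFPHigh and RFPLow of each Fc receptor gene with its 95% interval (edgeR, paired by mouse), scaled by TMM (red) or to the 20 microglia core genes (green). Under the core scaling *Fcgr1* and *Fcer1g* moved to −0.05 and −0.01, while *Fcrls* stayed above 0 at 0.59 and *Fcgrt* lay at −2.14.

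**Figure D3:**
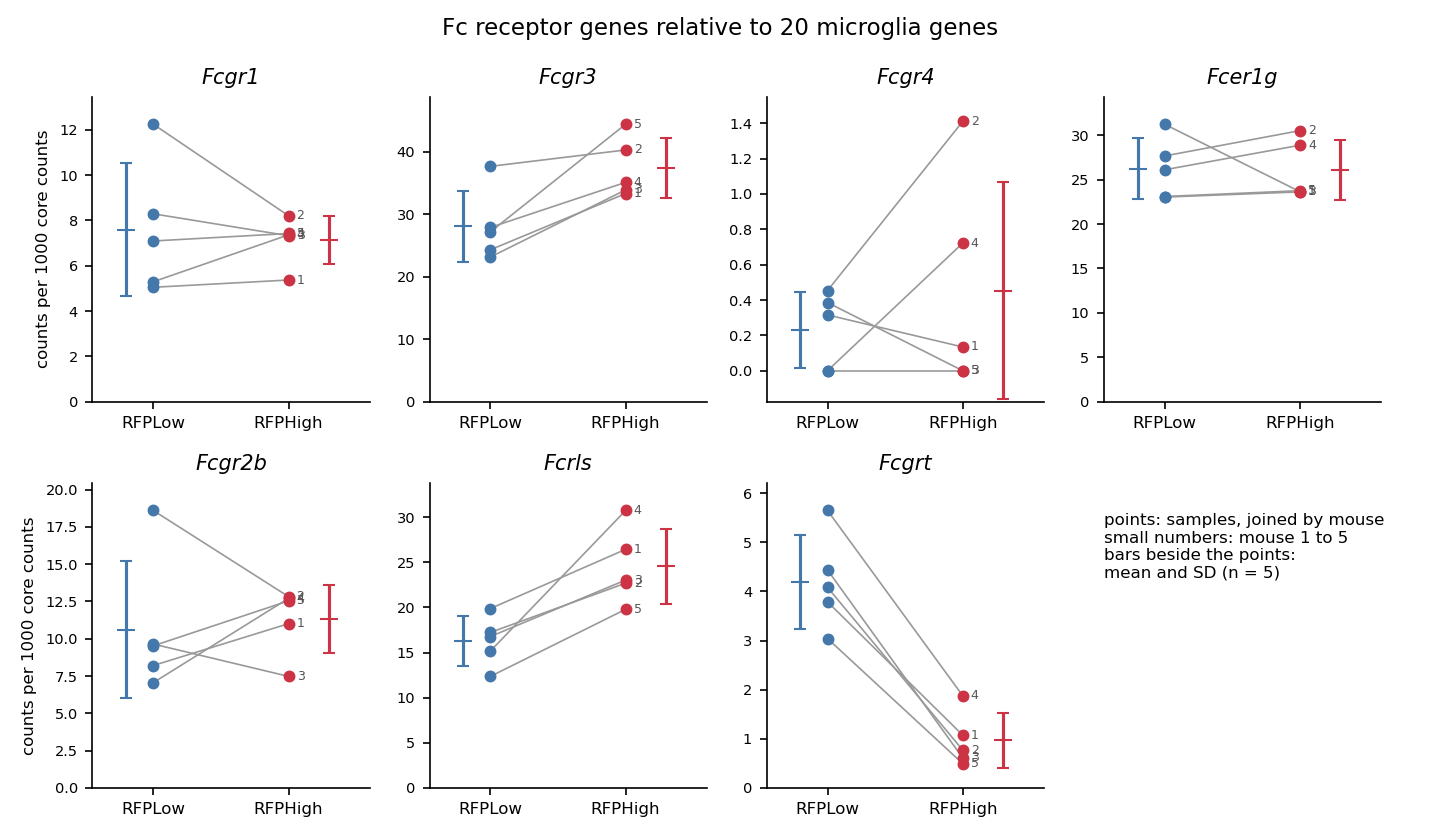
Counts of the 7 Fc receptor genes per 1000 counts of the 20 microglia core genes (linear axes) in RFPLow (blue) and RFPHigh (red) samples, joined by mouse, with mean and SD beside the points. *Fcgr3* and *Fcrls* were higher in the RFPHigh sample of 5 of 5 mice and *Fcgrt* was lower in 5 of 5, while *Fcer1g* had the same mean level within its spread and was higher in 4 of 5, all but mouse 3; in CPM, *Fcer1g* had a log2 fold change of 1.11.

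The balance of activating and inhibitory receptors can be read within each sample, where it does not depend on scaling. *Fcgr2b* made up 21.7%, 27.0%, 23.3%, 17.5% and 21.8% of all Fcgr counts in the RFPLow samples and 22.1%, 20.4%, 15.4%, 22.7% and 19.5% in the RFPHigh samples. The inhibitory share was higher in the RFPHigh sample of 2 of 5 mice, and the paired difference of −2.21 percentage points was smaller than its spread between mice (SD 5.31, n = 5). Without mouse 3 the difference was −0.79 points, and without mouse 4 it was −4.06. Against *Fcgr3* alone, the share of *Fcgr2b* differed by −3.64 points (SD 7.04, n = 5) and was higher in 1 of 5 mice, with −1.71 without mouse 3 and −6.14 without mouse 4. Counting alone left each share uncertain by several points, for example from 11.1% to 25.8% in the RFPLow sample of mouse 4 (95% exact binomial interval).

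*Fcgr3* took 61.2% ± 6.07 (SD, n = 5) of the Fcgr counts in RFPLow and 66.5% ± 2.95 (SD, n = 5) in RFPHigh, and was higher in 4 of 5 mice. Its paired difference of 5.30 percentage points, which was 3.18 without mouse 3 and 8.25 without mouse 4, was smaller than its spread (SD 7.74, n = 5). *Fcgr1* took 16.1% ± 2.93 (SD, n = 5) and 12.7% ± 1.65 (SD, n = 5), and was higher in 1 of 5 mice. Its paired difference of −3.36 percentage points exceeded its spread between mice (SD 2.12, n = 5). No test was made on these shares, because the genes were chosen with results known.

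**Figure D4:**
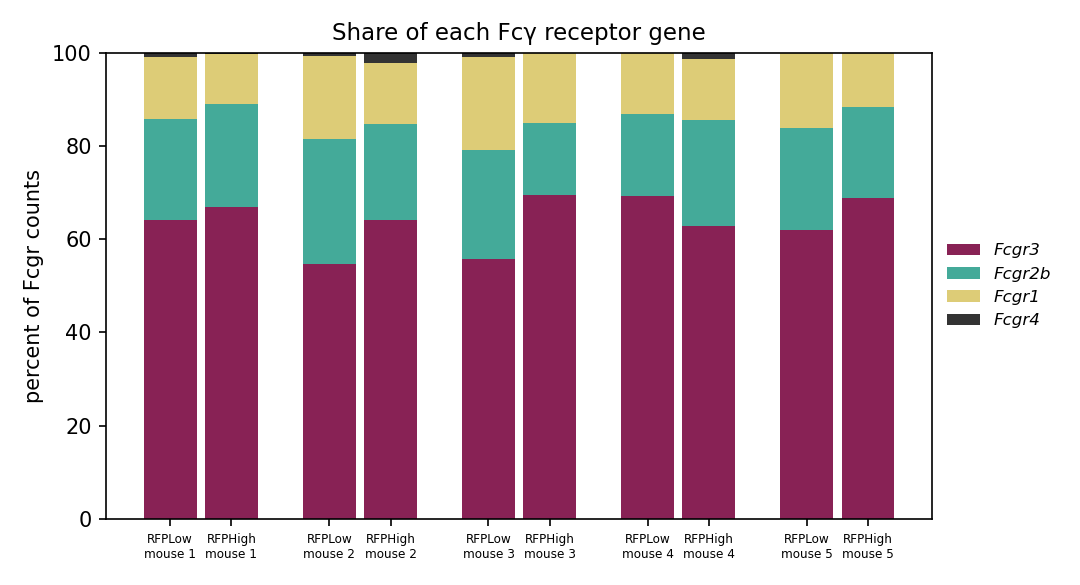
Percent of all Fcgr counts taken by *Fcgr3*, *Fcgr2b*, *Fcgr1* and *Fcgr4* in each sample, as stacked bars side by side for the RFPLow and RFPHigh sample of each mouse. *Fcgr3* held the largest share in all 10 samples, and the share of *Fcgr2b* lay between 15.4% and 27.0%.

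Relative to the summed counts of the activating receptors, most of which were *Fcgr3*, the signalling chain was lower in RFPHigh in 4 of 5 mice. By log2 fold change in CPM, *Fcer1g* (1.11) did not rise less than *Fcgr1* (1.07). There were 0.777, 0.550, 0.982, 0.787 and 0.675 counts of *Fcer1g* per count of *Fcgr1*, *Fcgr3* and *Fcgr4* together in the RFPLow samples, and 0.609, 0.612, 0.574, 0.669 and 0.459 in the RFPHigh samples. The ratio was higher in RFPHigh in mouse 2, and the paired difference of −0.17, which was −0.11 without mouse 3, was about as large as its spread between mice (SD 0.17, n = 5).

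Among the other chains that pair with such receptors, *Tyrobp*, which encodes the ITAM adaptor DAP12 of other myeloid receptors, was the nearest counterpart of *Fcer1g*. It stood at 702, 526, 637, 401 and 673 CPM in the RFPLow samples and at 1204, 929, 956, 1098 and 629 CPM in the RFPHigh samples. The groups overlapped because mouse 5 was lower in RFPHigh than in RFPLow. *Tyrobp* was called higher, and its log2 fold change was 0.70 (SE 0.20; edgeR adjusted p = 0.0166; higher in 4 of 5 mice), which turned to −0.42 relative to the core. The call was lost with DESeq2 (adjusted p = 0.0507) and without mouse 2, 3 or 4 (adjusted p up to 0.0917 by edgeR), whereas under the other alternatives in CPM the adjusted p lay at or below 0.0434. *Fcer1g* had 0.606 ± 0.0836 (SD, n = 5) counts per *Tyrobp* count in RFPLow and 0.806 ± 0.117 (SD, n = 5) in RFPHigh, higher in 4 of 5 mice.

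*B2m* encodes the light chain that the neonatal receptor shares with MHC class I. With 2994 ± 537 CPM (SD, n = 5) in RFPLow and 3513 ± 365 CPM (SD, n = 5) in RFPHigh, it had a log2 fold change of 0.24 (95% interval −0.09 to 0.57; edgeR adjusted p = 0.381), and −0.89 relative to the core, where it was called lower as *Fcgrt* was (adjusted p = 0.000149, against 0.141 to 0.664 under 13 other alternatives). *Hcst*, which encodes the adaptor DAP10, had 37 and 25 counts in all and a log2 fold change of −0.53 (95% interval −1.68 to 0.60), which spanned −0.89 to −0.23 with single mice left out. Relative to the core it was called lower at −1.66 (adjusted p = 0.0134, against 0.432 to 0.837 under 12 other alternatives). The β chain of the IgE receptor, *Ms4a2*, had 0 counts, and *Cd247*, the ζ chain of T and NK cell receptors, had 5 counts in RFPLow and 0 in RFPHigh.

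Of 11 other Fc receptor genes, only *Fcrl1* and *Trim21* reached 20 counts. *Fcrl1*, a B cell receptor-like gene, had 23 and 25 counts (log2 fold change 0.42, 95% interval −0.77 to 1.63), and −0.62 relative to the core. *Trim21*, a cytosolic antibody receptor, had 22 and 9 counts (log2 fold change −1.09, 95% interval −3.11 to 0.84), with values from −2.17 to −0.47 when mice 4 and 2 were left out. Relative to the core *Trim21* was called lower at −2.18 (adjusted p = 0.0428, against 0.202 to 0.850 under 12 other alternatives). In CPM 0 of these genes were called by edgeR, and 0 had an unadjusted p under 0.05 or were called by DESeq2 or limma voom. *Fcer2a*, *Fcrl5*, *Fcrl6*, *Fcrlb* and *Fcamr* had 0 counts in both populations, and *Fcer1a* had 1 count in RFPLow and 0 in RFPHigh. *Fcrla*, *Fcmr* and *Pigr* had between 3 and 16 counts in all.

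Downstream of the ITAM, 29 of 32 kinases and adaptors were tested, of which 12 were called higher and 2 lower by edgeR, with a median log2 fold change of 0.82 that turned to −0.30 relative to the core. DESeq2 called 7 higher and 1 lower. *Lyn*, the Src family kinase that phosphorylates both ITAM and ITIM, had 225 ± 70.9 CPM (SD, n = 5) in RFPLow and 495 ± 37.2 CPM (SD, n = 5) in RFPHigh, a log2 fold change of 1.19 (edgeR adjusted p = 0.000248). *Pik3r1*, a regulatory subunit of PI3-kinase, and *Grb2*, an adaptor to the Ras pathway, rose by log2 fold changes of 0.91 and 0.85, and relative to the core stood at −0.21 and −0.28. *Cdc42*, a GTPase of the phagocytic cup, had a log2 fold change of 0.21 (95% interval −0.18 to 0.59), and −0.92 relative to the core, where it was called lower (adjusted p = 0.000747, against 0.514 to 0.831 under 13 other alternatives). Under the core scaling 0 of the list were called higher and 9 of 29 lower, where 0.224% and 56.8% of all tested genes were, against 5.28% and 8.92% in CPM.

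*Syk*, the kinase that docks on the phosphorylated ITAM, had 36 and 39 counts and a log2 fold change of 0.16 (edgeR adjusted p = 0.888). The 2 genes called lower were *Fyn*, another Src family kinase, with 101 and 37 counts (log2 fold change −1.35, edgeR adjusted p = 0.0164), and *Vav3*, an exchange factor, with 24 and 0 counts. *Vav3* was thus at least 7.0-fold lower, taking 3 counts over the group as the floor, but mouse 3 held 13 of the 24 counts, and without it the limit was 3.75-fold. The call of *Fyn* was lost without mouse 3 or 5 (adjusted p up to 0.0688 by edgeR) and that of *Vav3* with DESeq2 (adjusted p = 0.0663), and without mouse 3 or 4 *Vav3* had too few counts to be tested. *Syk*, *Fyn* and *Vav3* were singled out after their values were seen.

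On the inhibitory side, 11 of 12 phosphatases and adaptors were tested, and 5 were called higher and 0 lower by edgeR (5.28% and 8.92% of all tested genes), with a median log2 fold change of 0.76 that turned to −0.30 relative to the core. At an unadjusted p under 0.05, 1 was lower, and DESeq2 called 4 higher and 0 lower. *Inpp5d* encodes SHIP1, the lipid phosphatase that binds the ITIM of *Fcgr2b*. It stood at 174, 132, 80.6, 126 and 131 CPM in the RFPLow samples and at 465, 249, 262, 299 and 312 CPM in the RFPHigh samples. The populations did not overlap and mouse 1 was highest in both, with a log2 fold change of 1.31 (edgeR adjusted p = 0.000129), close to the 1.25 of *Fcgr2b*.

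*Ptpn6*, the phosphatase SHP-1, and *Pag1*, which anchors the inhibitory kinase of Src family members, rose with log2 fold changes of 1.45 and 1.39. *Cbl*, a ubiquitin ligase that ends ITAM signals, had 1.22. *Dok1*, an adaptor named after its values were seen, was the fifth at 1.34, a call lost with DESeq2 (adjusted p = 0.163) and without mouse 3 or 5 (adjusted p up to 0.123 by edgeR). Relative to the core these 4 genes and *Inpp5d* had log2 fold changes between 0.10 and 0.37, and 0 of the list were called higher and 3 lower. In CPM, 12 of 29 and 5 of 11 tested genes of the 2 sides were thus called higher, and 15 and 6 were not called. The core scaling, under which 0.224% of all tested genes were called higher and 56.8% lower, left none of these calls.

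**Figure D5:**
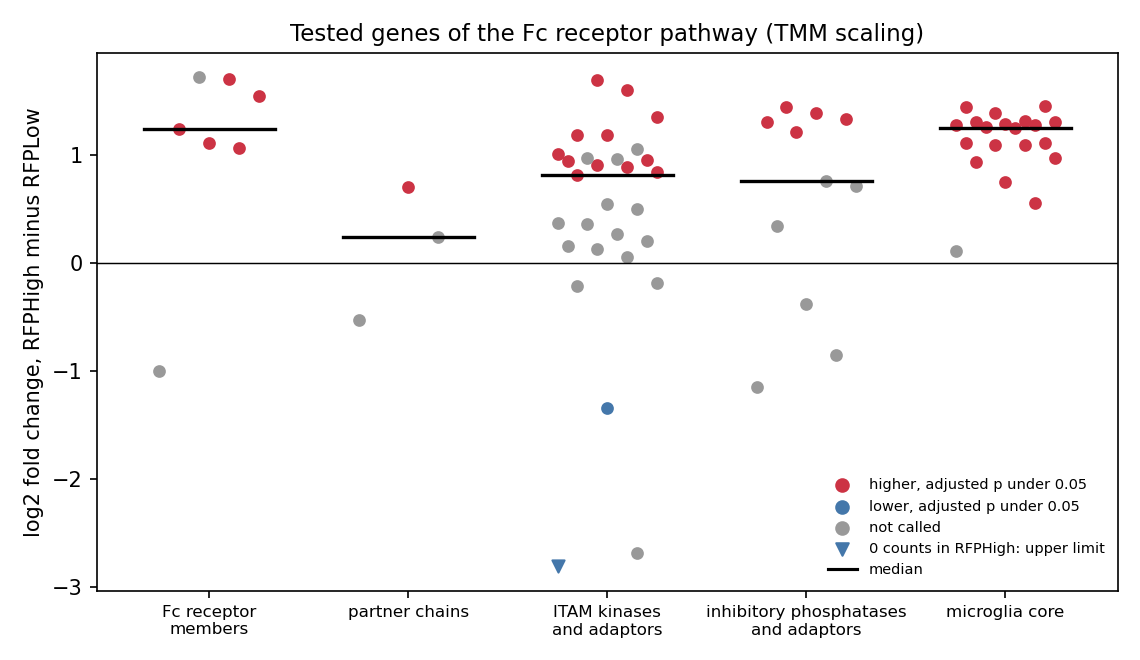
Log2 fold change (RFPHigh minus RFPLow, TMM scaling) of each tested gene of the Fc receptor family, of 3 lists of its pathway and of the microglia core, with the median of each list as a black bar. A triangle marks *Vav3*, with 0 counts in RFPHigh, at its limit of 7.0-fold (3.75-fold without mouse 3); medians were 1.25, 0.24, 0.82, 0.76 and 1.26, and under the core scaling 0.13, −0.89, −0.30, −0.30 and 0.14.

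The ligands showed a different split. *Igkc*, the κ light chain constant region shared by most mouse antibodies, had 51, 46, 109, 81 and 129 counts in the RFPLow samples and 0, 1, 1, 0 and 0 counts in the RFPHigh samples. All RFPLow samples were far above all RFPHigh samples. Summed over the mice this was 416 against 2 counts, a level 182-fold higher in RFPLow with a 95% counting interval from 50.1 to 1508. Without mouse 2 or mouse 3, which held those 2 counts, it was 292-fold or 314-fold. *Jchain*, which joins IgM and IgA units, had 54 and 2 counts, a ratio of 23.6 (95% counting interval 6.23 to 200.1). Both RFPHigh counts lay in mouse 4, and without it *Jchain* had 48 and 0 counts, at least 13.5-fold lower in RFPHigh with 3 counts over the group as the floor.

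The heavy chains are given by class, and no difference between the classes was tested. *Ighm*, the heavy chain of IgM, had 343, 117, 194, 207 and 229 CPM in the RFPLow samples and 195, 192, 179, 256 and 233 CPM in the RFPHigh samples. These ranges overlapped fully, with 291 and 254 counts and a log2 fold change of 0.01 (95% interval −0.47 to 0.49; edgeR adjusted p = 0.989), which was −1.10 relative to the core and called lower there (adjusted p = 0.000689, against 0.641 to 0.995 under 13 other alternatives). *Ighd*, the heavy chain of IgD, had 24 and 16 counts (log2 fold change −0.25, 95% interval −1.71 to 1.2).

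The 4 IgG heavy chain genes, whose products are the ligands of the Fcγ receptors, had 32 counts in 4 RFPLow samples and 0 in RFPHigh, at least 9.34-fold lower with 3 counts over the group as the floor. Mouse 5 held 23 of the 32 counts, and without it 9 remained and the limit was 2.74-fold. *Igha*, the heavy chain of IgA, had 30 and 0 counts, at least 8.75-fold lower by the same floor. Mouse 3 held 16 of these, and without it the limit was 4.78-fold and *Igha* had too few counts to be tested. Of 17 ligand genes 6 were tested, with 4 called lower (*Igkc*, *Jchain*, *Igha* and the λ chain *Iglc3*) and 0 higher by edgeR. Over all tested genes 8.92% were called lower and 5.28% higher. The call of *Iglc3* was lost with DESeq2 (adjusted p = 0.0644) and without mouse 2 or 4 (adjusted p up to 0.0900 by edgeR), and without mouse 3 or 5 it had too few counts. At an unadjusted p under 0.05, 0 were higher, and 0 were called higher by DESeq2 or limma voom. The median log2 fold change of the 6 genes was −3.85, or −3.40 with *Igha* at its limit. The pentraxins *Crp* and *Apcs* and the serum protein *Alb* had 0 counts.

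Markers of B and plasma cells did not all move with the antibody genes. *Jchain*, which is also one of those genes, held 54 of the 107 RFPLow counts of the 10 markers. It was the 1 of 2 tested that was called lower, where 8.92% of all tested genes were. The other 9 markers had 53 and 37 counts. They took 0.00216% to 0.00733% of counts in the RFPLow samples and 0.00124% to 0.00583% in the RFPHigh samples, and were higher in RFPHigh in 2 of 5 mice. *Cd79a*, *Pax5*, *Mzb1*, *Sdc1* and *Derl3* had 0 counts in RFPHigh and at most 8 each in RFPLow. *Cd79b* had 6 and 6 counts, and *Cd22*, listed here as a B cell marker, had 8 and 25, in 3 RFPLow and 5 RFPHigh samples. These 2 genes were singled out after their values were seen. The log2 fold change of *Cd22* was 1.80 (edgeR unadjusted p = 0.0265, adjusted p = 0.126), and 0.74 relative to the core. It was called without mouse 5 (adjusted p = 0.0464, against 0.0834 to 0.466 under 12 other alternatives). The part of B and plasma cells in the antibody counts was not tested, and neither was the part of B cells or other cells in the *Cd22* counts.

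Markers of other leukocytes with Fc receptors took a lower share of counts in the RFPHigh samples. The 10 neutrophil markers took 0.240% to 0.723% of counts in RFPLow and at most 0.0197% in RFPHigh. Of these, 6 of 6 tested were called lower, where 8.92% of all tested genes were. *S100a8* was the most abundant with 2974 and 29 counts, and *Ly6g*, *Mmp9* and *Cxcr2* had 0 counts in RFPHigh. The 10 monocyte markers took 0.0451% to 0.0719% in RFPLow and 0.00124% to 0.00639% in RFPHigh. Among them 7 of 9 tested were called lower, and *Ly6c2*, *Chil3*, *Ace* and *Treml4* had 0 counts in RFPHigh. *Fn1* was the most abundant, with 402 of the 861 RFPLow counts of this list. Like the endothelial share, it was lowest in mouse 1 and highest in mouse 4 of the RFPLow samples.

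The mast cell and basophil markers and the T and NK cell markers were low throughout. The first took 0.00226% to 0.00770% of counts in RFPLow and at most 0.00135% in RFPHigh, with 1 of 2 tested genes (*Gata2*) called lower. *Gata2* held 48 of the 81 RFPLow counts of this list. Like the endothelial share, it was lowest in mouse 1 and highest in mouse 4 of the RFPLow samples. In RFPHigh 7 of 10 genes had 0 counts, among them *Cpa3*, *Fcer1a* and *Ms4a2*, but *Fcer1a* had only 1 count and *Ms4a2* had 0 in RFPLow. The T and NK cell markers, led by *Trbc2* with 53 and 0 counts, took 0.00408% to 0.0160% and at most 0.00240%. Of these, 2 of 4 tested were called lower and 7 of 10 were at 0 in RFPHigh, among them *Cd3e* and *Ncr1*. Over all tested genes 8.92% were called lower. The call of *Gata2* was lost with DESeq2 (adjusted p = 0.267) and without mouse 3 or 4 (adjusted p up to 0.0743 by edgeR). The part of all these leukocytes in the Fc receptor levels was not tested, nor was the part of endothelial RNA in the *Fn1* and *Gata2* counts.

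Markers of CNS-associated macrophages, which also carry Fcγ receptors, did not separate the populations in CPM. They took 0.0257% ± 0.00189 (SD, n = 5) of counts in RFPLow and 0.0279% ± 0.00794 (SD, n = 5) in RFPHigh, and were higher in 2 of 5 mice. In CPM 0 of 9 tested were called by edgeR, with 1 higher and 1 lower at an unadjusted p under 0.05, 0 by DESeq2 and limma voom, and 1 lower by the likelihood ratio test. *Mrc1*, the mannose receptor and their most abundant gene, had a log2 fold change of 0.64 (95% interval −0.02 to 1.31), and −0.45 relative to the core. Under that scaling 2 of the 9 were called lower, with a median of −0.88, where 56.8% of all tested genes were, with a median of −1.20.

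Markers of brain cells without a known role in the family also differed. For comparison, 8.92% of all tested genes were called lower in CPM. All 10 oligodendrocyte markers were called lower, led by *Mal* with 496 and 30 counts, and *Opalin* had 0 counts in RFPHigh. Their share was 0.116% to 0.326% in RFPLow and 0.00966% to 0.0189% in RFPHigh. Of the mural cell and fibroblast markers 5 of 7 tested were called lower, led by *Vtn*, with shares of 0.0387% to 0.0724% and 0.00135% to 0.0252%, and *Tagln*, *Lum* and *Kcnj8* had 0 counts in RFPHigh. Of the astrocyte markers 3 of 10 were called lower, led by *Slc1a2*, with overlapping shares of 0.375% to 0.554% and 0.0930% to 0.560% that were higher in the RFPHigh sample of 3 of 5 mice. Of the neuron markers 3 of 8 tested were called lower, with overlapping shares of 0.0254% to 0.0539% and 0.00878% to 0.0256%, and *Meg3*, the most abundant, was not among them. The calls of *Vtn* and *Slc1a2* were lost without single mice (mouse 1, 2 or 4 with adjusted p up to 0.0977, and mouse 1, 2 or 5 with adjusted p up to 0.194, by edgeR), and *Meg3* was close to a call (adjusted p = 0.0528). It was called lower under 7 of 13 alternatives in CPM (adjusted p from 0.00191 to 0.0462), among them the fit without mouse 1 (0.0178), the likelihood ratio test and limma voom, and not under the other 6 (0.0578 to 0.351). The part of these cells in the Fc receptor levels was not tested.

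By a fixed rule, the 3 genes most like each of the more abundant members were sought among 672 genes, by the root mean square difference of centred log2 CPM over the 10 samples. Closest to *Fcer1g* were the lysosomal proteases *Ctsl* (0.13) and *Ctsb* (0.14), with the microglia core gene *Tmem119* between them (0.13). Close to *Fcgr3* were *Hpgds* (0.14), a prostaglandin D synthase, and the transcription factor *Mef2a* (0.18). *Fcgr2b* was nearest to *Cbl* (0.18), *Scamp2* (0.21) and *Adgre1* (0.23), which encodes F4/80. The neighbours of *Fcrls* were less close, with *Fam102b* at 0.22 and *Apbb1ip* and *Olfml3* at 0.24.

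Position groups the members as well. In GENCODE M21 on GRCm38, *Fcgr2b*, *Fcgr4*, *Fcgr3* and *Fcer1g* lie within 276 kb of chromosome 1 (170958617 to 171234365), *Fcgr1* and *Fcrls* on chromosome 3, and *Fcgrt* on chromosome 7. The cluster on chromosome 1 therefore held members that were called and 1, *Fcgr4*, that was not. *Fcgr2b* and *Fcgrt* each overlap a gene on the other strand, and the strand setting of the counting is not given in the sources used here. The gene opposite *Fcgr2b* had 0 counts, and that opposite *Fcgrt* was not analysed here. The receptor genes are related in sequence, but in the last 500 bases of their transcripts, where 3′ tags fall, no stretch of 50 bases was shared with another gene, except 33 of 451 such stretches in 1 of the 4 *Fcgr2b* transcripts, shared with *Fcgr3*.

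The start sites of the 7 members were found in the RefSeq promoter table (GRCm38.p6), with 2 windows for *Fcgr3*, and were searched on both strands for a motif of myeloid genes, because 5 members moved together. The motif, GAGGAA, is the core bound by PU.1, the master regulator of the macrophage lineage. The letters GAGGAA occur in 28.3% of the 32851 promoter windows, each from 250 bases before to 50 bases after the start. The stretches with GAGGAA, or with TTCCTC where it lies on the opposite strand, are shown in the direction of the gene with these letters in capitals:

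*Fcgr1*: gcaacttccTTCCTCttttctaat

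*Fcgr3*: tccatttccTTCCTCtttttgtag

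*Fcgr4*: gctatttacTTCCTCtcttctagt

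*Fcrls*: gtctgtaaaGAGGAAggacgtttg

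They lie at chr3:96294010-96294033 (*Fcgr1*, minus strand), chr1:171059395-171059418 (*Fcgr3*, minus strand), chr1:171018895-171018918 (*Fcgr4*, plus strand) and chr3:87263654-87263677 (*Fcrls*, minus strand). With the RefSeq start site as base 1, the motif begins at −55 in *Fcgr1*, at −22 in *Fcgr4*, at −144 in *Fcrls*, and at −6 and −15 in the windows of *Fcgr3*, which read the same stretch. The GENCODE M21 genes differ from these start sites for *Fcgr3* and *Fcrls*, which there reach 171064935 and 87263738. By that annotation their stretches lie inside the gene. These letters were not in the windows of *Fcgr2b*, *Fcer1g* or *Fcgrt*. Members with the GAGGAA letters thus included *Fcgr3* and *Fcrls*, higher relative to the core in 5 of 5 mice, but also *Fcgr1*, which was not, and *Fcgr4*, which had few counts. These matches describe the sequences only.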

How the data were processed

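From QuantSeq 3′ FWD libraries, run through the FWD UMI pipeline of Lexogen, the authors deposited whole-number counts of reads per gene for each of the 10 bulk samples, without normalization. Whether counts were collapsed by molecular identifier, the strand setting and the genome build of the bulk counting are not given in the sources used here. Reads on no gene (32.1% to 37.2% of reads in the RFPLow samples and 38.4% to 48.6% in the RFPHigh samples) and ambiguous reads (0.295% to 0.436%) stayed out of library sizes. Symbols were found for 47224 of 47643 gene rows, and 18571 genes had a count.

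Genes with at least 20 counts over all samples were fitted with edgeR 4.0.16 in R 4.3.3 (TMM factors, quasi-likelihood test, mouse as a block), with Benjamini-Hochberg adjustment over the 10254 genes tested. The methods give both populations to the same mice. Samples were paired by the number in their labels, which do not name the mouse. Ages match by number, but several mice were of equal age. The deviations from the group means correlated within mice at 0.12, −0.0018, 0.060, 0.00079 and 0.019. CPM values were TMM-scaled, with a prior count of 2 only for log2 values in the search for similar genes. The code was tested on simulated data. Intervals of 95% on counts, and the limit of 3 counts for a count of 0, cover counting error only.

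The members and the lists were chosen with earlier results of these data known. Lists of other Fc receptors, partner chains, ITAM kinases and adaptors, inhibitory phosphatases and adaptors, ligands, the microglia core and 11 lists of cell markers were written from general knowledge. *Jchain* stands in the ligand and the B and plasma cell lists, and *Fcer1a* and *Ms4a2* also stand in the mast cell and basophil list. Named were all members, all partner chains, the 4 tested genes of highest mean CPM in each other list of the pathway (all tested genes where fewer were tested), and the most abundant gene of each marker list. The similar genes were sought for members with at least 50 counts per sample on average, among genes with as many; 1 of the genes so found, and 1 motif searched for, are not reported here. The alternatives changed the scaling (microglia core, library size, median of ratios), the filter (filterByExpr, at least 1 count), the block (none), the test (likelihood ratio, DESeq2 1.42.0, limma 3.58.1 with voom) and the call rule (a log2 fold change above 1), or left out each mouse.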

Additional observations from a re-analysis of the deposited data

Results flagged for a closer look

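In 108 sets of 5 values, 1 value stood apart from the other 4 by a gap of over 0.71 of the range in 6 cases. Chance alone gives about 1 in 20 such sets, here about 5. *Fcrls* stood at 353.9 CPM in the RFPLow sample of mouse 1, against 174 to 206 CPM in the others. *Cbl* stood at 331.8 CPM in the RFPHigh sample of mouse 3, against 425 to 459 CPM. *Jchain* had 7.986 CPM in the RFPHigh sample of mouse 4 and *Gata2* had 9.993 CPM in that of mouse 1, each against 0 in the other RFPHigh samples, and both rest on 2 counts. The other Fc receptor genes took 0.0006903% of counts in the RFPHigh sample of mouse 2, against 0.00399% to 0.00494%. The T and NK cell markers took 0.004079% in the RFPLow sample of mouse 2, against 0.0141% to 0.0160%.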

How the results depend on the processing

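Under 13 alternatives other than the core scaling, *Fcgr1*, *Fcgr2b*, *Fcgr3*, *Fcer1g* and *Fcrls* kept their direction and their calls. Their log2 fold changes spanned 0.95 to 1.16, 1.08 to 1.37, 1.48 to 1.59, 1.02 to 1.21 and 1.59 to 1.80, and the highest adjusted p was 0.0194 (*Fcgr1*). *Fcgrt* stayed uncalled between −1.24 and −0.85, and *Fcgr4* between 1.2 and 2.09 under 8 alternatives, since it had too few counts for the others. In the paired fit against no replicate block, 1456 and 1582 genes were called, and *Fcgrt* had −1.0 and −0.94; without the block no member or pathway count changed, but *Slc1a2* lost and *Meg3* gained its call. Of 35 single-gene values, 32 to 34 kept direction and side under each full alternative in CPM, 26 of 27 with filterByExpr, 30 to 33 with a mouse left out, and 13 under the microglia core scaling. Under the microglia core scaling 5844 genes were called, 23 higher and 5821 lower, with 1 member higher and 1 lower, and 0 pathway genes higher and 20 lower against 18 and 6. There *Fcgr2b* had 0.13, *Fcgr3* 0.43, *Fcgrt* −2.14, and values turned for *Fcgr1* (−0.050), *Fcer1g* (−0.013), *Fcrl1* (−0.62), *Grb2* (−0.28), *Pik3r1* (−0.21), *Cdc42* (−0.92), *Ighm* (−1.10), *Tyrobp* (−0.42), *B2m* (−0.89), *Cx3cr1* (−0.15) and *Mrc1* (−0.45); the scaling itself lowers all genes. The filterByExpr setting, which tests fewer genes, called 929 (495 lower; 2 pathway genes lower), and DESeq2 called 913 (288 higher; 11 pathway genes higher). Requiring a log2 fold change above 1 left 11 pathway genes higher. Leaving out each mouse gave 952 to 1276 genes, 339 to 506 higher and 613 to 770 lower, with 11 to 17 pathway genes higher and 2 to 6 lower, and an inhibitory share difference of −4.06 to −0.79 percentage points, which was −3.64 with *Fcgr2b* and *Fcgr3* alone. *Ighm*, near 0, was −0.034 with median of ratios, −0.058 with library size alone, −0.058 with filterByExpr, −0.031 without the block, −0.029 with DESeq2 and −0.13 to 0.22 with mice left out. With mice left out *Fcrl1* spanned −0.0026 to 0.75 and *Ighd* −0.77 to 0.20. Where the setting does not itself show it, the cause was not tested.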
